A study of Mus musculus with 4 samples.

Results

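The 2 pools of colon RNA from mice given azoxymethane (AOM) were compared, the pool labeled *Pla2g3*-/- against the pool labeled *Pla2g3*+/+, which are 2 of the 4 arrays of the series. They were chosen by their sample titles alone, with no measured value used. AOM is a carcinogen that induces colon tumors in rodents, and the comparison asks how the loss of *Pla2g3* bears on the colon transcriptome in that model. The mice were labeled male and 42 weeks old, on a background labeled B6.129 (n3), and the labels name no other engineered allele. Both AOM groups received 10 mg/kg by intraperitoneal injection each week over a period of 6 weeks, and colons were collected 28 weeks after the final dose. Both vehicle groups, *Pla2g3*+/+ and *Pla2g3*-/-, received saline. By the labels each array was hybridized with RNA mixed from 3 to 5 mice of 1 group, a range that the study's text narrows to a single number, and there was 1 array per group, no replicate check, and no p-value for any difference between arrays. A value from a pool gives neither the spread between mice nor the contribution of any single animal. The labels describe the AOM tissue as colorectal cancer tissue, whereas the study describes whole descending colons, and the share of tumor in either pool is not given in the sources used here.

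*Pla2g3* encodes group III secreted phospholipase A2 (sPLA2-III), an enzyme that releases fatty acids and lysophospholipids from membrane phospholipids. In the colon the gene is known from the epithelium. The colon wall is built of an absorptive and mucus-secreting epithelium, a supporting stroma with immune cells, and an outer coat of smooth muscle with its enteric neurons. Tumors of the AOM model usually carry an active Wnt pathway, in which β-catenin and TCF factors switch on genes of the crypt stem cell.

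The arrays measure 1 color (Cy3), and the deposited background call passed 64.8% to 69.4% of the 43020 non-control spots per array, with no saturated spot. For probes with several spots, the SD between spots had a median of 0.057 to 0.064 on the log2 scale, a technical spread within arrays only. Levels are given as a scaled signal, the processed intensity with the 75th percentile of its array set to 1000. The unscaled percentile was 646 and 650 on the vehicle arrays and 1309 and 1169 on the AOM arrays, the *Pla2g3*+/+ pool being named first here and in every pair or set of values that follows. On this scale the dimmest spots that passed the background call lay at 12.6 and 14.6 on the AOM arrays and at 16.6 and 22.8 on the vehicle arrays. A gene passing that call on only 1 array of a pair is given as a bound ("at least"), with the dim side set to the limit of its array or to its own signal if higher. Signals of different probes depend on probe affinity, so a level is compared between arrays and not between genes. "Higher" and "lower" refer to the pool labeled *Pla2g3*-/- relative to the pool labeled *Pla2g3*+/+ unless stated, and a gene is counted past a 2-fold difference.

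The targeted gene showed no loss of signal in either pool labeled *Pla2g3*-/-. *Pla2g3* has 3 probes on chromosome 11 of mouse build mm9. The brightest, at chr11:3394109-3394168, had scaled signals of 531 and 656 on the vehicle arrays and 232 and 1396 after AOM. The probe at chr11:3393127-3393186 had 83.9 and 88.7 with vehicle and 30.5 and 203 after AOM. The dimmest, at chr11:3399294-3399353, had 13.9, not well above background, and 38.4 with vehicle, and 31.2 and 86.1 after AOM. All 3 probes were thus higher after AOM in the pool labeled *Pla2g3*-/-, by 6.01-fold, 6.66-fold and 2.76-fold. With vehicle, too, no probe was lower in the pool labeled *Pla2g3*-/-, so neither pair showed a loss of the gene at these probes. Which exons the deletion removed is not given in the sources used here, so whether these probes lie inside the deleted segment could not be checked. These signals therefore cannot serve as a check of the genotype labels. Every direction below follows the labels as they stand. Of 36 genes with a value whose probe starts within 1 Mb of *Pla2g3*, 5 were over 2-fold higher after AOM and 3 lower. *Pla2g3* included, that is 22.2%, against 28.0% over all genes with a value after AOM. These counts are therefore not read as a result about the region.

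After AOM, the pool labeled *Pla2g3*-/- exceeded the other by over 2-fold for 2601 of the 17203 genes with a value, which is 15.1%. Another 2219 genes, or 12.9%, were over 2-fold lower, and the total of 4820 was 28.0%. Which direction held more genes depended on the scaling: without scaling 2188 were higher and 2655 lower, and with scaling on the spike-in controls 1845 were higher and 3230 lower. In the vehicle pools, which share no array with these, 317 of 16396 genes were higher (1.93%) and 217 lower (1.32%), 534 or 3.26% in all. The difference between the AOM pools went far beyond 2-fold for many genes, with 972 genes over 4-fold higher, 859 over 4-fold lower, 303 over 10-fold higher and 290 over 10-fold lower. Among 15490 genes above background on both AOM arrays, the SD of the log2 ratio was 1.20, against 0.36 for the vehicle pair. The median log2 ratio over all genes was 0.03, so the scaled distributions were centered alike. These shares and this median are the background against which each gene list below is read.

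**Figure D1:**
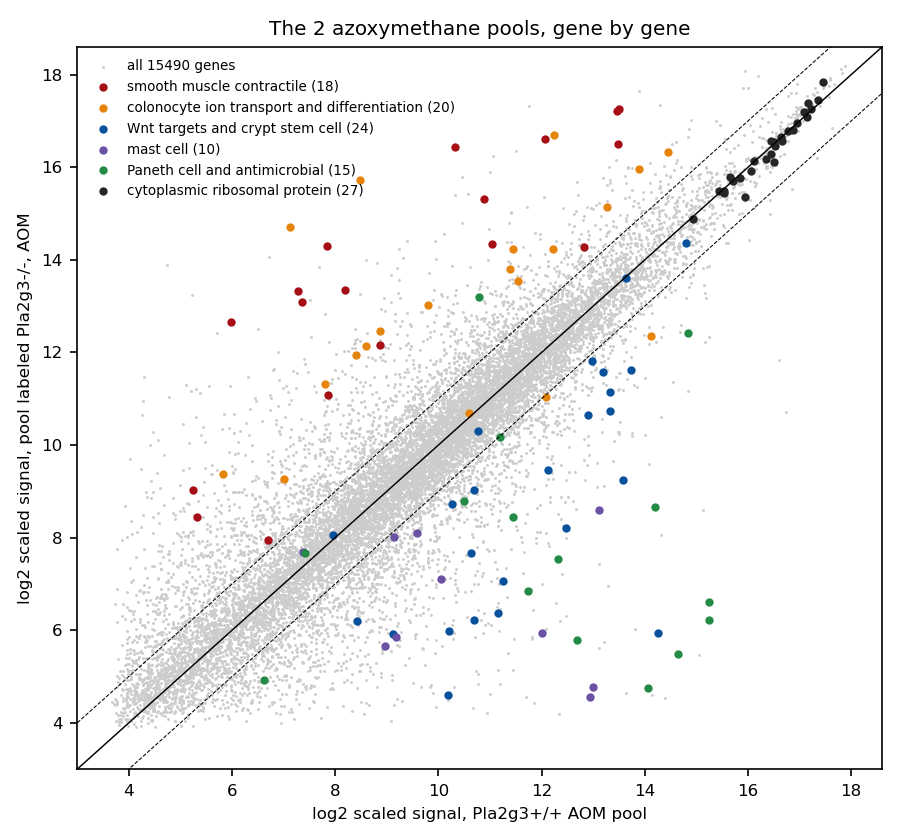
Each gray point is 1 of 15490 genes well above background on both AOM arrays, plotted by its log2 scaled signal in the *Pla2g3*+/+ pool (x axis) and in the pool labeled *Pla2g3*-/- (y axis), with the line of equality and dashed lines at 2-fold. Members of 6 lists are colored: smooth muscle lies above the upper dashed line, most Wnt, mast cell and Paneth cell genes lie below the lower one, and cytoplasmic ribosomal protein genes lie along equality.

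Contractile genes of smooth muscle were the list with the highest median. All 20 members were over 2-fold higher after AOM in the pool labeled *Pla2g3*-/-, none was lower, and the median log2 ratio was 3.77. In the vehicle pools none of the 20 passed 2-fold and the median was 0.03. *Cnn1*, encoding the actin-binding protein calponin, had 109288 and 116430 with vehicle and 1275 and 89541 after AOM, a 70.2-fold difference. *Myh11*, the smooth muscle myosin heavy chain, had 5922 and 5448 with vehicle and 229 and 20066 after AOM, an 87.7-fold difference. *Des*, the intermediate filament desmin, had 7921 and 7167 with vehicle and 63.2 and 6474 after AOM, a 102-fold difference. In each of these the low array was that of the *Pla2g3*+/+ AOM pool, while the pool labeled *Pla2g3*-/- lay nearer to the vehicle arrays. The same array was the lowest of the 4 for 20 of 20 members. *Tagln*, the brightest member, had 194208 and 201593 with vehicle and 11577 and 157600 after AOM, 13.6-fold higher. Actin-binding *Synpo2* was 66.4-fold higher, with 155 and 10267 after AOM. Summed over the list, the scaled signal was 751441 and 791907 with vehicle and 52970 and 739271 after AOM. In bulk tissue, fewer cells of a type and less RNA per cell cannot be told apart, and the part that muscle content has in the other differences between the AOM pools was not tested.

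Genes of other cells of the outer wall were also mostly higher. Of 18 genes of pacemaker cells, enteric neurons and glia, 12 were over 2-fold higher and none lower, with a median log2 ratio of 1.31. *Vip*, a neuropeptide of enteric motor neurons, had 1613 and 1535 with vehicle, 4.78 after AOM in the *Pla2g3*+/+ pool, where it was not well above background, and 1030 in the other AOM pool, a difference of at least 82.0-fold. The neuronal filament gene *Prph* was at least 30.6-fold higher, with 572 and 660 with vehicle and 5.08 and 385 after AOM. *Ano1*, a chloride channel of pacemaker cells that some epithelia also express, was 2.32-fold higher. It had 9632 and 8586 with vehicle and 12712 and 29511 after AOM, so that neither AOM array was low.

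Of 10 adipocyte genes, 8 had a value after AOM, 7 were higher and none lower, and the median was 3.17. The brightest member, *Fabp4*, was within 2-fold, at 2023 and 2681 after AOM (1.33-fold). *Cfd*, the secreted serine protease adipsin, had 7250 and 19169 with vehicle and 19.3 and 1995 after AOM, a 103-fold difference. The lipid droplet gene *Plin4* was 60.2-fold higher, with 39.5 and 2376, and *Pck1*, of glyceroneogenesis and gluconeogenesis, was 31.2-fold higher, with 43.3 and 1351. *Adipoq*, the defining adipokine, was at least 16.8-fold higher. Its 4 levels, 1331, 2523, 4.02 and 211, place both AOM pools under both vehicle pools. The erythroid list ran the other way, with 6 of 7 genes lower, none higher and a median of -1.71. The brightest, the α-globin gene *Hba-a2*, had 30145 and 41182 with vehicle and 118215 and 47358 after AOM. The *Pla2g3*+/+ AOM array was the highest of the 4 for all 7, and globin genes are close copies whose probes may share targets.

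**Figure D2:**
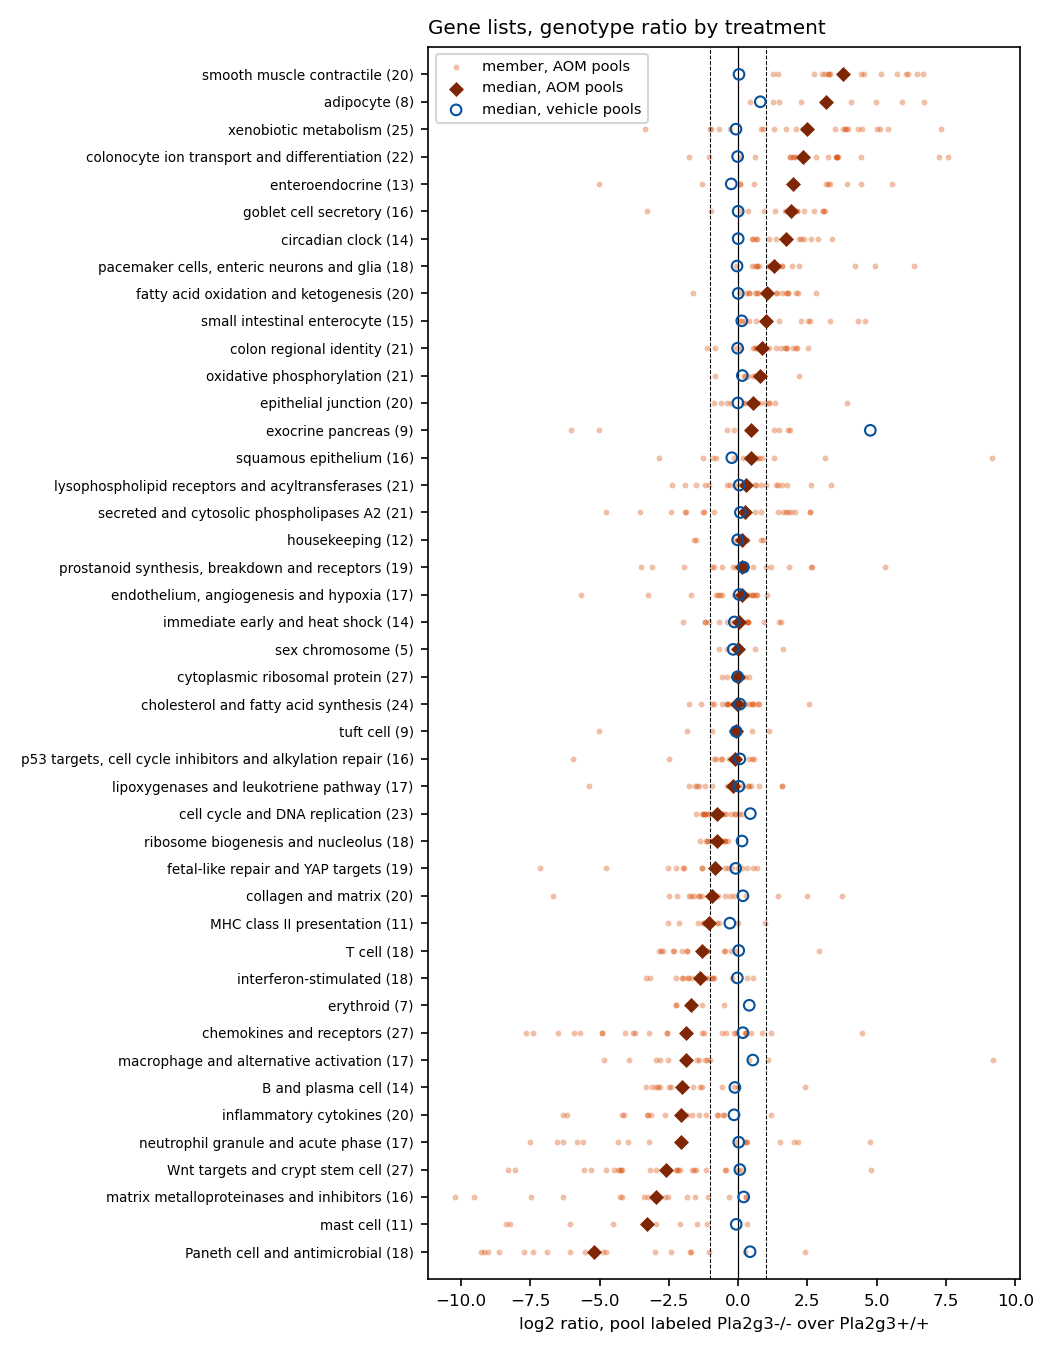
Each row is 1 of 44 gene lists, with the number of members that had a value after AOM, ordered by the median log2 ratio of the pool labeled *Pla2g3*-/- over *Pla2g3*+/+ after AOM (diamonds); small points are members, open circles the median of the vehicle pools, and dashed lines 2-fold. Medians after AOM run from 3.77 for smooth muscle to -5.21 for the Paneth cell list, whereas the vehicle medians lie within 2-fold except for exocrine pancreas at 4.77.

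Differentiated epithelium was higher in the pool labeled *Pla2g3*-/- after AOM. Of 22 genes of colonocyte ion transport and differentiation, 18 were over 2-fold higher, 2 lower and 2 within 2-fold, with a median of 2.33, and none of 21 passed 2-fold in the vehicle pools. *Slc26a3*, the chloride-bicarbonate exchanger of surface colonocytes, had 9973 and 10205 with vehicle and 140 and 26824 after AOM, a 192-fold difference. *Aqp8*, a water channel, had 93405 and 99397 with vehicle and 358 and 54073 after AOM, a 151-fold difference. *Guca2a*, encoding the hormone guanylin, had 293931 and 279083 with vehicle and 4841 and 105755 after AOM, a 21.8-fold difference. Again it was the *Pla2g3*+/+ AOM array that was low, and it was the lowest of the 4 for 20 of the 22 genes. *Trpm6*, a magnesium channel, was 12.2-fold higher, and the keratin gene *Krt20*, of surface epithelium, was 3.66-fold higher, with 22475 and 82313. The 2 that were lower were *Slc9a3*, a sodium-proton exchanger, by 3.44-fold, and *Clca4b*, a chloride channel regulator, by 2.09-fold.

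Of 16 goblet cell genes, 11 were higher, 1 lower and 4 within 2-fold, with a median of 1.90. *Zg16*, a secreted lectin, had 443698 and 403601 with vehicle and 20008 and 167786 after AOM, 8.39-fold higher. *Atoh1*, the transcription factor of the secretory lineage, had 4430 and 4699 with vehicle and 243 and 2121 after AOM, 8.73-fold higher. *Clca1*, a secreted goblet cell protease, was 4.37-fold higher, with 30547 and 133487, and the membrane mucin *Muc13* was 3.26-fold higher. For *Zg16*, *Atoh1* and *Clca1* both AOM pools lay under both vehicle pools, the *Pla2g3*+/+ pool lower. *Ang4*, an antimicrobial ribonuclease, stood against the list, at 131305 and 106633 with vehicle and 4600 and 468 after AOM, 9.83-fold lower.

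Of 13 enteroendocrine genes, 8 were higher, 2 lower and 3 within 2-fold, with a median of 1.98 that became 0.55 with normexp background correction and 3.18 without a filter on dim probes. The granule protein gene *Scg2* was 46.8-fold higher, with 23.6 and 1104 after AOM. *Gcg*, the proglucagon gene, was 21.6-fold higher, with 61.1 and 1320, and the hormone gene *Insl5* 15.4-fold higher, with 96.2 and 1478. The hormone gene *Nts* was 32.8-fold lower, with 6919 and 6253 with vehicle and 541 and 16.5 after AOM, and *Pyy*, encoding peptide YY, was 2.49-fold lower. Tuft cell genes showed no such shift: of 9 with a value, 1 was higher (*Rgs13*, 2.14-fold) and 2 lower, with a median of -0.09. *Avil*, an actin-severing protein that this list counts as a tuft cell gene, was 32.9-fold lower, with 923 and 28.1.

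Of 15 genes of small intestinal enterocytes with a value, 8 were higher and none lower, with a median of 1.02. *Fabp6*, a bile acid binding protein, was 24-fold higher, with 86.7 and 2076, the retinol carrier gene *Rbp2* 20.2-fold higher, with 16.4 and 330, and *Fabp2* 9.94-fold higher. *Fabp2* had 132751 and 155834 with vehicle and 614 and 6101 after AOM, so that both AOM arrays were low. Of 21 factors of colon regional identity, 10 were higher, 1 lower and 10 within 2-fold, with a median of 0.85. *Cdx1*, an intestinal homeobox factor, had 8208 and 35064 after AOM (4.27-fold), and *Hoxb13*, a gene of the distal colon, 24406 and 63341 (2.60-fold). *Meis2* was 5.79-fold higher, *Osr2* at least 3.97-fold higher, and *Nkx2-3*, a factor of gut mesoderm, 2.15-fold lower. Of 20 junction genes, 4 were higher and none lower, with a median of 0.52. The 4 were the claudin genes *Cldn8* (612 and 9293, 15.2-fold) and *Cldn15* (2.49-fold), the occludin gene *Ocln* (733 and 1606, 2.19-fold) and the desmosomal cadherin gene *Dsg2* (2.17-fold).

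Genes of xenobiotic metabolism formed another list that was mostly higher, at 18 of 25 with a value, with 2 lower and a median of 2.49. *Cyp2c55*, a cytochrome P450 of the colon, had 56335 and 46311 with vehicle and 105 and 16999 after AOM, a 161-fold difference. *Sult1a1*, a sulfotransferase, had 39138 and 36970 with vehicle and 386 and 16243 after AOM, a 42.1-fold difference. The related sulfotransferase genes *Sult1d1* and *Sult1c2* were 35-fold and 32.4-fold higher. *Cyp2b10*, a P450 inducible by drugs, was 10.3-fold lower, with 3266 and 317, and was not well above background with vehicle. *Gsta3*, a glutathione transferase, was 2.01-fold lower.

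Among genes of squamous epithelium, a keratin gene had the largest difference. *Krt5*, the keratin of basal squamous cells, had 56.1 and 51.5 with vehicle and 26.6 and 15273 after AOM, a 574-fold difference and the largest in that direction among genes above background on both AOM arrays. Of 16 squamous genes with a value, 3 were higher, 2 lower and 11 within 2-fold, and the median was 0.46. That is 31.2% past 2-fold, near the 28.0% over all genes. The other 2 higher members were *Sprr2a1* and the desmosomal gene *Dsc3*, at least 8.78-fold and at least 2.47-fold. *Krt4* was at least 7.33-fold lower and the cornified envelope gene *Sprr1a* 2.39-fold lower. *Krt15* was present in both AOM pools, at 5459 and 3168, against 48.5 and 39.6 with vehicle. Exocrine pancreas genes, of which 13 of 16 were higher in the vehicle pools, had a value for 9 after AOM, with 4 higher, 2 lower and a median of 0.48. The 2 lower members, against the sign of the list median, were the pancreatic enzyme genes *Pnliprp1* and *Rnase1*, by 66.3-fold and at least 32.5-fold.

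Wnt target and crypt stem cell genes were lower. Of 27, 22 were over 2-fold lower, 1 higher and 4 within 2-fold, with a median log2 ratio of -2.60, against 0.06 in the vehicle pools. *Wif1*, a secreted Wnt inhibitor that Wnt signaling itself switches on, had 252 and 162 with vehicle and 19530 and 61.8 after AOM, a 316-fold difference. *Sp5*, a transcription factor and direct Wnt target, had 40.2 and 41.7 with vehicle and 3923 and 10.1 after AOM, the last not well above background, at least 268-fold lower. *Apcdd1*, a Wnt inhibitor of the cell surface, had 17.6 and 26.4 with vehicle, neither well above background, and 1163 and 24.4 after AOM, 47.6-fold lower. In all 3 the *Pla2g3*+/+ AOM array stood apart and high, and it was the highest of the 4, by any margin, for 25 of the 27 members. *Prox1*, a homeobox gene of colon adenomas, was at least 39.5-fold lower, with 646 and 16.3. The receptor gene *Ephb3*, the brightest member, differed by 1.35-fold, with 28387 and 20984. *Olfm4*, a stem cell marker of human colon, was the exception, at least 28.0-fold higher, with 10.9 and 352 after AOM and no signal well above background on the other 3 arrays.

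Proliferation genes differed less. Of 23 cell cycle and replication genes, 8 were lower, none higher and 15 within 2-fold, with a median of -0.75. The cyclin gene *Ccne1* had 1438 and 1520 with vehicle and 2690 and 922 after AOM, 2.92-fold lower, and the replication helicase gene *Mcm7* had 3356 and 3403 with vehicle and 6449 and 2681 after AOM, 2.41-fold lower. The replication clamp gene *Pcna*, the brightest, was within 2-fold, at 13873 and 7161. Of 18 ribosome biogenesis genes, 4 were lower and none higher, with a median of -0.77. That is 22.2% past 2-fold, under the 28.0% over all genes. *Nop56*, of the box C/D ribonucleoprotein, was 2.57-fold lower, with 12202 and 4745. Among 16 genes of the p53 response, cell cycle inhibition and alkylation repair, 12.5% passed 2-fold, under the 28.0% over all genes. In this list 2 were lower and none higher, with a median of -0.12. These were 2 cell cycle inhibitor genes, *Cdkn2a*, with 13.6, not well above background, and 32.1 with vehicle and 3617 and 57.9 after AOM, 62.5-fold lower, and *Cdkn1c*, 5.67-fold lower. The p53 regulator gene *Mdm2* differed by 1.05-fold. Of 19 fetal-like repair and YAP target genes, 8 were lower and none higher, with a median of -0.84. *Clu*, the secreted chaperone clusterin of revival stem cells, had 7475 and 7482 with vehicle and 99884 and 3635 after AOM, 27.5-fold lower. The surface protein gene *Msln* was 141-fold lower, with 3325 and 23.6, and the EGF receptor ligand gene *Ereg* 5.75-fold lower.

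**Figure D3:**
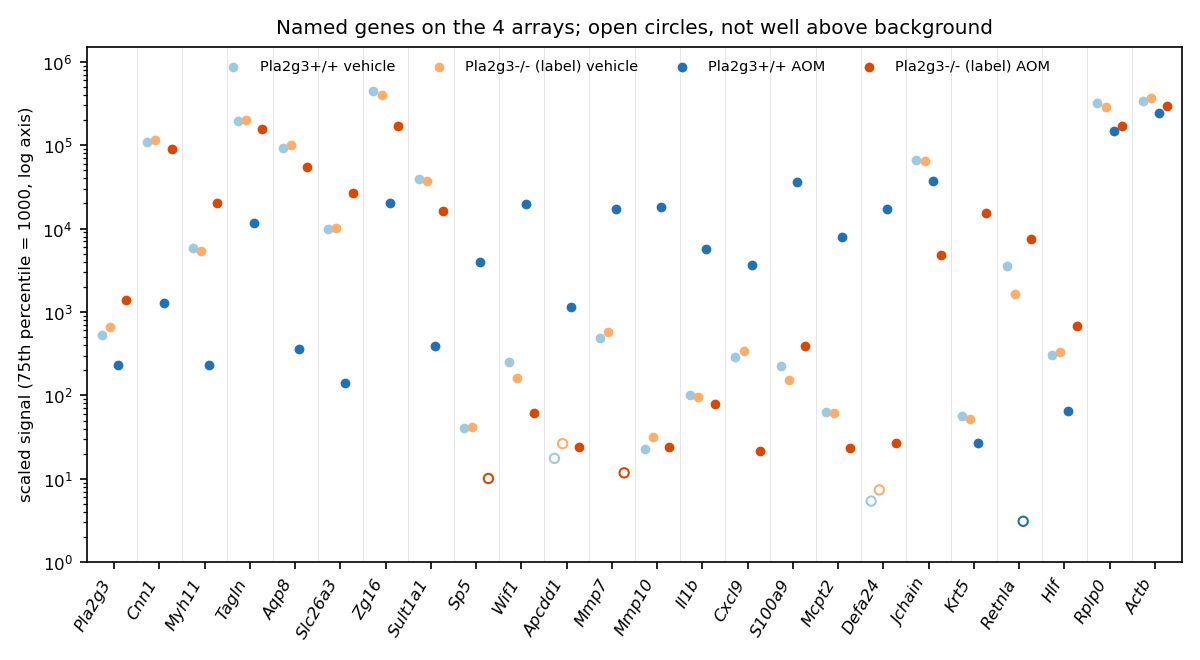
Scaled signal (log axis, 75th percentile of each array set to 1000) of 24 genes on the 4 arrays, with vehicle in pale and AOM in dark colors, blue for *Pla2g3*+/+, orange for the pools labeled *Pla2g3*-/-, and open circles for signals not well above background. The vehicle pair lies close together for most of these genes, and the *Pla2g3*+/+ AOM pool often lies apart from the other 3 arrays, low for *Cnn1*, *Aqp8* and *Slc26a3* and high for *Wif1*, *Mmp10* and *Mcpt2*, while *Krt5* is high only in the AOM pool labeled *Pla2g3*-/-.

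Among matrix metalloproteinases, their inhibitors and the plasminogen activator system, 13 of 16 genes were lower and none higher, with a median of -2.95. *Mmp10*, a stromelysin, had 23.1 and 31.3 with vehicle and 18149 and 24.2 after AOM, a 749-fold difference. *Mmp7*, the matrilysin of intestinal epithelium and its tumors, had 487 and 576 with vehicle, 17355 after AOM in the *Pla2g3*+/+ pool and 11.8, not well above background, in the other AOM pool, a difference of at least 1186-fold. The collagenase gene *Mmp13* was 178-fold lower, with 9488 and 53.4, and the gelatinase gene *Mmp9* at least 80.4-fold lower, with 1176 and 3.68. These 4 proteases were thus high on 1 array of 4. The inhibitor gene *Timp2* was within 2-fold, at 18649 and 22510. Collagen and matrix genes were divided, with 10 of 20 lower, 3 higher and a median of -0.96. *Spp1*, encoding the secreted phosphoprotein osteopontin, was above background in the *Pla2g3*+/+ AOM pool alone, at 1527, against 4.18 in the other, and the fibrillar collagen partner *Col12a1* 5.71-fold lower. *Sparc*, a collagen-binding glycoprotein gene, had 46875 and 67487 with vehicle and 87783 and 32730 after AOM. *Col17a1*, a hemidesmosome collagen of basal epithelium, was 13.4-fold higher, with 44.0 and 588. *Col14a1* and *Postn*, both of fibroblasts, were 5.67-fold and 2.69-fold higher. Of 17 endothelial, angiogenesis and hypoxia genes, 3 were lower, 1 higher and 13 within 2-fold, with a median of 0.13. That is 23.5% past 2-fold, under the 28.0% over all genes. The 3 lower were *Esm1*, *Angpt2* and *Cdh5*, by 50.6-fold, 9.58-fold and 3.23-fold. The other endothelial genes of the list, such as *Pecam1*, *Kdr* and *Vwf*, were within 2-fold. *Car9*, a hypoxia-inducible carbonic anhydrase, was 2.05-fold higher.

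Inflammatory cytokines were lower for 15 of 20 genes with a value, with 1 higher and a median of -2.05. *Il1b* had 102 and 96.7 with vehicle and 5671 and 79.0 after AOM, a 71.8-fold difference. *Il11*, a stromal cytokine of the IL-6 family, had 54.9 and 41.1 with vehicle and 2807 and 35.3 after AOM, a 79.5-fold difference. *Il6* passed the background call only in the *Pla2g3*+/+ AOM pool, at 270, and was at least 18.5-fold lower. On these 3 the pool labeled *Pla2g3*-/- and the vehicle pools were alike in being low. *Il18*, which the epithelium makes at rest, was 2.30-fold higher, with 3606 and 8310. Of the 20 values 12 were bounds, and the medians of this list and of other immune lists depend on how dim probes are treated.

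Of 27 chemokine and receptor genes, 16 were lower, 2 higher and 9 within 2-fold, with a median of -1.87. *Cxcl9*, an interferon-inducible attractant of T cells, had 290 and 342 with vehicle and 3679 and 21.5 after AOM, a 171-fold difference. *Ccl4* and *Ccl3*, attractants of monocytes and T cells, were at least 203-fold and at least 90.0-fold lower, and *Cxcl1*, an attractant of neutrophils, was 61.0-fold lower. *Ccl28*, an epithelial attractant of plasma cells, was 22.3-fold higher, with 88.8 and 1984, and *Cxcl13*, of B cell follicles, 2.29-fold higher. Interferon-stimulated genes were lower for 12 of 18 and higher for none, with a median of -1.36, and *Usp18*, a brake on interferon signaling, was 9.22-fold lower, with 3365 and 365. *Ifit2*, an RNA-binding antiviral gene, had 225 and 263 with vehicle and 1756 and 176 after AOM.

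The neutrophil and acute phase list was divided, with 9 of 17 lower, 4 higher and a median of -2.06. That median was -0.08 over the members above background on both arrays. *S100a9* and *S100a8*, the calprotectin subunits, had 35747 and 387 and 10039 and 125 after AOM, 92.4-fold and 80.5-fold lower, against 224 and 155 and 51.2 and 60.2 with vehicle. *Saa3*, an inducible serum amyloid gene, was 180-fold lower, and the lectin receptor gene *Clec4e* at least 55.6-fold lower. The epithelial amyloid genes *Saa1* and *Saa2* were 4.04-fold and 4.45-fold higher, as close paralogs that probes may not fully separate. *Ltf*, lactoferrin of neutrophil granules and of secretory glands, had 17.1, not well above background, and 32 with vehicle and 359 and 9826 after AOM, 27.4-fold higher, and *Ly6g* was 2.86-fold higher. Of 17 macrophage genes, 14 were lower, 2 higher and 1 within 2-fold, with a median of -1.88. *Arg1*, arginase of alternatively activated macrophages, was 28.8-fold lower, with 1669 and 58.0, *Chil3* 15.3-fold lower, with 1099 and 71.8, and the integrin gene *Itgax* 7.75-fold lower. *Itgam* was 2.12-fold higher. *Retnla*, another gene of alternative activation that adipose tissue also expresses, had 3536 and 1653 with vehicle, 3.10, not well above background, after AOM in the *Pla2g3*+/+ pool and 7444 in the other AOM pool, a difference of at least 592-fold.

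Mast cell genes were lower for 10 of 11 and higher for none, with a median of -3.30. The chymase genes *Mcpt2* and *Mcpt1*, of mucosal mast cells, had 7879 and 23.6 and 8127 and 27.3 after AOM, 334-fold and 297-fold lower. With vehicle they stood at 63.9 and 61.0 and at 61.6 and 85.5, so that only the *Pla2g3*+/+ AOM array was high. *Hdc*, the histamine-forming enzyme, was 67.6-fold lower, with 4140 and 61.2, and *Mcpt4*, of connective tissue mast cells, 23.0-fold lower, with 8877 and 386. Summed over the list, the scaled signal was 812 and 808 with vehicle and 32739 and 1492 after AOM.

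Lymphocyte genes were lower with another order of the arrays. Of 18 T cell genes, 13 were lower, 1 higher and 4 within 2-fold, with a median of -1.29. *Gzma*, a granzyme of cytotoxic and intraepithelial lymphocytes, had 7360 and 9445 with vehicle and 749 in the *Pla2g3*+/+ pool after AOM, against a 7.21-fold lower level in the other AOM pool. *Cd3d*, of the T cell receptor complex, had 815 and 673 with vehicle and 417 and 63.0 after AOM, 6.63-fold lower. Of 14 B and plasma cell genes with a value, 10 were lower, 1 higher and 3 within 2-fold, with a median of -2.03. *Jchain*, the joining chain of secreted IgA, had 66463 and 64520 with vehicle and 37075 and 4812 after AOM, 7.70-fold lower. The B cell coactivator gene *Pou2af1* had 443 and 525 with vehicle and 620 and 62.1 after AOM, 9.98-fold lower. *Pigr*, the epithelial transporter of IgA counted in this list, was 5.28-fold higher, with 10235 and 54053. Here it was the AOM array of the pool labeled *Pla2g3*-/- that was the lowest of the 4, for 13 of the 18 T cell and 11 of the 14 B and plasma cell genes. The same array was lowest for 13 of the 18 interferon-stimulated genes given above. It was also lowest for 9 of 11 genes of MHC class II presentation, of which 6 were over 2-fold lower and none higher, with a median of -1.05. *H2-Eb1*, a class II chain, had 27049 and 22201 with vehicle and 29847 and 10875 after AOM, 2.74-fold lower, and *Cd86*, a costimulator, was 4.43-fold lower. The order of an AOM array against the vehicle arrays depended on the scaling for T cell, MHC class II and interferon-stimulated genes. Without scaling the median log2 difference from the vehicle mean over T cell genes was 0.52 for *Pla2g3*+/+ and -0.06 for the other AOM pool. It was 1.01 and -0.15 over MHC class II genes, and 1.86 and 0.05 over interferon-stimulated genes.

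Paneth cell and antimicrobial genes had the lowest median of the 44 lists, -5.21, with 16 of 18 lower, 1 higher and 1 within 2-fold. Among genes above background on both AOM arrays, α-defensin genes were 6 of the 10 with the largest difference in this direction. *Defa24* had 5.41 and 7.36 with vehicle, neither well above background, and 17041 and 27.0 after AOM, 632-fold lower. *Defa40* had 31.0 and 31.3 with vehicle and 39111 and 74.3 after AOM, 527-fold lower. *Defa2* and *Defa28*, outside the list, were 926-fold and 765-fold lower. A signal of this size stood on the *Pla2g3*+/+ AOM array alone. The α-defensin genes are near-identical copies whose probes may take up each other's transcripts, so they are better read as 1 family than as separate genes. The count and median of this list still take its α-defensin members singly. *Lyz1*, lysozyme of Paneth cells, had 8790 and 12323 with vehicle and 29291 and 5520 after AOM, 5.31-fold lower. *Reg4*, a lectin of secretory cells, was 5.26-fold higher, with 31839 and 34524 with vehicle and 1775 and 9340 after AOM. The same 10 genes held the metallothionein gene *Mt4*, 507-fold lower with 12690 and 25 after AOM. *Wfdc18*, a secreted protease inhibitor gene, was among the 5 brightest genes over 4-fold lower, with 5908 and 9299 with vehicle and 109287 and 1680 after AOM, 65.0-fold.

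Among phospholipases A2, the family of the targeted gene, 8 of 21 were higher, 7 lower and 6 within 2-fold, with a median of 0.24. *Pla2g10*, the group X secreted enzyme of colonic epithelium, had 26677 and 28793 with vehicle and 5699 and 17525 after AOM, 3.08-fold higher. The secreted enzyme gene *Pla2g5* had 3453 and 3672 with vehicle and 748 and 2466 after AOM, 3.30-fold higher. *Pla2g4f*, a cytosolic enzyme, was 6.03-fold higher, with 125 and 751. Both *Pla2g10* and *Pla2g5* were lowest in the *Pla2g3*+/+ AOM pool, whereas *Pla2g4f* was highest in the AOM pool labeled *Pla2g3*-/-. Beside *Pla2g3* itself, the other higher members were *Plb1*, *Pla2g12b*, *Pla2g2c* and *Pla2g1b*, by 4.10-fold, 3.78-fold, 3.47-fold and 2.70-fold. *Pla2g2a*, the group IIA enzyme that Paneth cells secrete, had 223 and 339 with vehicle and 5136 and 187 after AOM, 27.5-fold lower. *Pla2g2d*, an enzyme of dendritic cells and macrophages, was 11.6-fold lower, with 543 and 46.8, and *Pla2g12a* 5.34-fold lower, with 2089 and 391. *Pla2g7*, the platelet-activating factor acetylhydrolase, *Pla2g2e*, *Pla2g15* and *Pla2g6* were lower by 3.77-fold, 3.71-fold, 2.41-fold and 2.37-fold. The family thus held members at either side of the background, the epithelial *Pla2g10* on one and the Paneth cell *Pla2g2a* on the other.

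Downstream of phospholipases, prostanoid genes were higher for 6 of 19 and lower for 3, with a median of 0.15. *Ptgs2*, the inducible cyclooxygenase, had 95.4 and 85.3 with vehicle and 1329 and 116 after AOM, 11.4-fold lower, whereas the constitutive *Ptgs1* differed by 1.07-fold, at 2906 and 2726. Thromboxane synthase (*Tbxas1*) was 3.83-fold lower and the prostaglandin D synthase *Ptgds* 8.65-fold lower, with 148 and 17.0. *Hpgd*, which inactivates prostaglandins, had 10479 and 7317 with vehicle and 1209 and 7487 after AOM, 6.19-fold higher. Its partner in clearance, the uptake carrier *Slco2a1*, was 3.62-fold higher, with 1578 and 5704. Prostacyclin synthase (*Ptgis*), of vessels and smooth muscle, was 6.26-fold higher, with 321 and 2011. Among receptors, *Ptger3* was at least 39.4-fold higher, with 3.15 and 495, *Tbxa2r* 2.29-fold and *Ptgfr* at least 2.03-fold.

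Lipoxygenase and leukotriene genes were lower for 6 of 17 and higher for 2, with a median of -0.17. *Alox12*, the platelet-type 12-lipoxygenase, had 42.5 and 42.6 with vehicle and 3655 and 86.4 after AOM, 42.3-fold lower. *Alox12e* and *Alox15* were 3.42-fold and 2.30-fold lower, and *Dpep2*, *Ggt5* and the leukotriene receptor gene *Cysltr2* were 2.94-fold, 2.66-fold and at least 2.82-fold lower. The peptidase gene *Dpep1* and the epoxide hydrolase gene *Ephx2* were 2.99-fold and 3.04-fold higher. *Lta4h*, which forms leukotriene B4, differed by 1.13-fold. Of 21 lysophospholipid receptors and acyltransferases, 7 were higher, 5 lower and 9 within 2-fold, with a median of 0.28. *Enpp2*, encoding autotaxin, which forms lysophosphatidic acid, had 1182 and 1259 with vehicle and 291 and 2961 after AOM, 10.2-fold higher. The acyltransferase genes *Agpat4* and *Mboat1* were 6.15-fold and 3.44-fold higher. The receptor genes *Gpr132*, *Lpar2*, *S1pr2*, *S1pr1* and *Lpar6* were lower, by 5.21-fold, 3.76-fold, 2.90-fold, 2.32-fold and 2.11-fold.

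**Figure D4:**
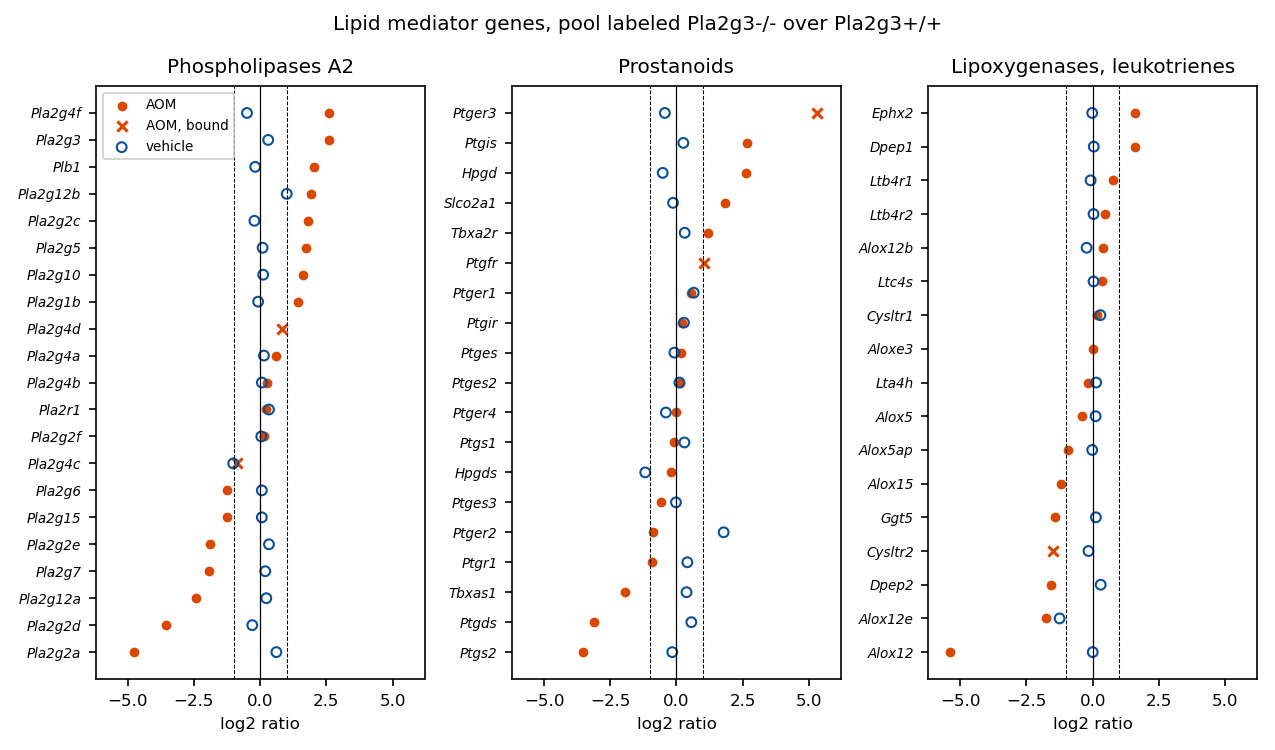
Log2 ratio of the pool labeled *Pla2g3*-/- over *Pla2g3*+/+ for each phospholipase A2, prostanoid and lipoxygenase or leukotriene gene with a value after AOM (filled, or a cross where the value is a bound), beside the ratio of the vehicle pools (open blue), with dashed lines at 2-fold. *Pla2g4f* and *Pla2g3* lie at the upper end and *Pla2g2a* at the lower end of the phospholipases, *Ptgs2* is the lowest prostanoid gene and *Ptger3* the highest, and most vehicle ratios lie between the dashed lines.

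Among metabolic genes, 10 of 20 of fatty acid oxidation and ketogenesis were higher and 1 lower, with a median of 1.03. *Ppara*, the lipid-sensing nuclear receptor of this pathway, had 1167 and 1084 with vehicle and 87.3 and 607 after AOM, 6.96-fold higher, and *Ehhadh* and *Bdh1* were 4.51-fold and 4.25-fold higher. *Acot1*, a thioesterase, was 3.07-fold lower. Oxidative phosphorylation subunits had a median of 0.80 with 1 of 21 past 2-fold, *Cox7a1*, an isoform of muscle, which was 4.57-fold higher with 2643 and 12068. Of 24 cholesterol and fatty acid synthesis genes, 1 was higher and 2 lower, with a median of -0.03. That is 12.5% past 2-fold, under the 28.0% over all genes. *Acss2* was 5.94-fold higher and *Fads1* 3.45-fold lower. Of 14 circadian clock genes, 10 were higher and none lower, with a median of 1.73. The clock output genes *Hlf* and *Dbp* were 10.4-fold and 6.18-fold higher, with 65.2 and 679 and 1793 and 11076, and the clock repressor genes *Ciart* and *Nr1d1* 7.31-fold and 5.15-fold higher. The hour at which each colon was taken is not given in the sources used here. Of 14 immediate early and heat shock genes, 4 were lower (*Egr2*, *Jun*, *Hsph1* and *Egr1*, by 2.08-fold to 3.93-fold), 2 higher (*Fos* by 2.95-fold and *Hspa1a* by 2.78-fold) and the median was 0.03.

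Most reference genes differed little. None of 27 cytoplasmic ribosomal protein genes passed 2-fold, and their median was -0.01. Of 12 housekeeping genes, *B2m* and *Gusb* were lower, by 3.00-fold and 2.90-fold, and 10 were within 2-fold, with a median of 0.15 and *Actb* at 240175 and 297723. Among 5 sex chromosome genes, *Eif2s3y* was 3.06-fold higher and the other 4 were within 2-fold, with a median of -0.01. *Xist*, which the inactive X chromosome of females expresses, was at 4.20 and 5.63 with vehicle, not well above background, and at 1144 and 867 after AOM, although both AOM pools are labeled male. The Y-linked *Ddx3y* was well above background on all 4 arrays, at 709, 566, 409 and 619. Whether the AOM and vehicle pools differed in sex makeup was not tested.

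Genes past 2-fold under both treatments were counted next. Of 4161 genes past 2-fold after AOM that also had a vehicle value, 63 passed 2-fold the same way with vehicle, 30 higher and 33 lower, and 95 passed it the opposite way. Over all genes with a vehicle value 3.26% passed 2-fold, as given above, so these counts are not read as a result about the overlap. The same-way genes were led by *Psca*, with 34.0 and 289 with vehicle and 29.6 and 122 after AOM, *Lgals2*, with 1251 and 374 with vehicle and 2938 and 289 after AOM, and *Chac1*, with 1337 and 406 with vehicle and 717 and 127 after AOM. *Psca* encodes a surface antigen, *Lgals2* a galectin and *Chac1* a glutathione-degrading enzyme. *Gp2* and *Dlk1* were higher under both treatments, by 13.4-fold and 6.45-fold after AOM.

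Set beside the vehicle arrays, the difference lay more often with the *Pla2g3*+/+ AOM pool. Of 1985 genes that were over 2-fold higher and measured on all 4 arrays, the *Pla2g3*+/+ AOM array was the farther from the vehicle mean for 1549, with median log2 distances of -1.53 for that array and 0.22 for the pool labeled *Pla2g3*-/-. Of 1576 genes over 2-fold lower, it was the farther for 1100, with medians of 1.33 and -0.43. For the higher genes this order depended on the scaling between treatments, since the AOM arrays were brighter overall: without scaling the *Pla2g3*+/+ AOM array was the farther for 700 of 1639, and with spike-in scaling for 627 of 1372. For the lower genes it held under each scaling tried, with 1782 of 1949 without scaling and 2226 of 2433 with spike-in scaling. By list, the *Pla2g3*+/+ AOM array lay at -3.96 for smooth muscle, -2.39 for colonocyte genes, 2.42 for Wnt targets and 5.95 for mast cell genes, where the pool labeled *Pla2g3*-/- lay at 0.10, 0.01, 0.10 and 0.48. Without scaling the *Pla2g3*+/+ AOM array was still the farther for these 4 lists, at -2.95, -1.38, 3.43 and 6.97 against 0.96, 0.86, 0.95 and 1.33. For B and plasma cell genes it was the pool labeled *Pla2g3*-/- that lay farther off, at -2.96 against -0.89, and at -2.11 against 0.13 without scaling.

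**Figure D5:**
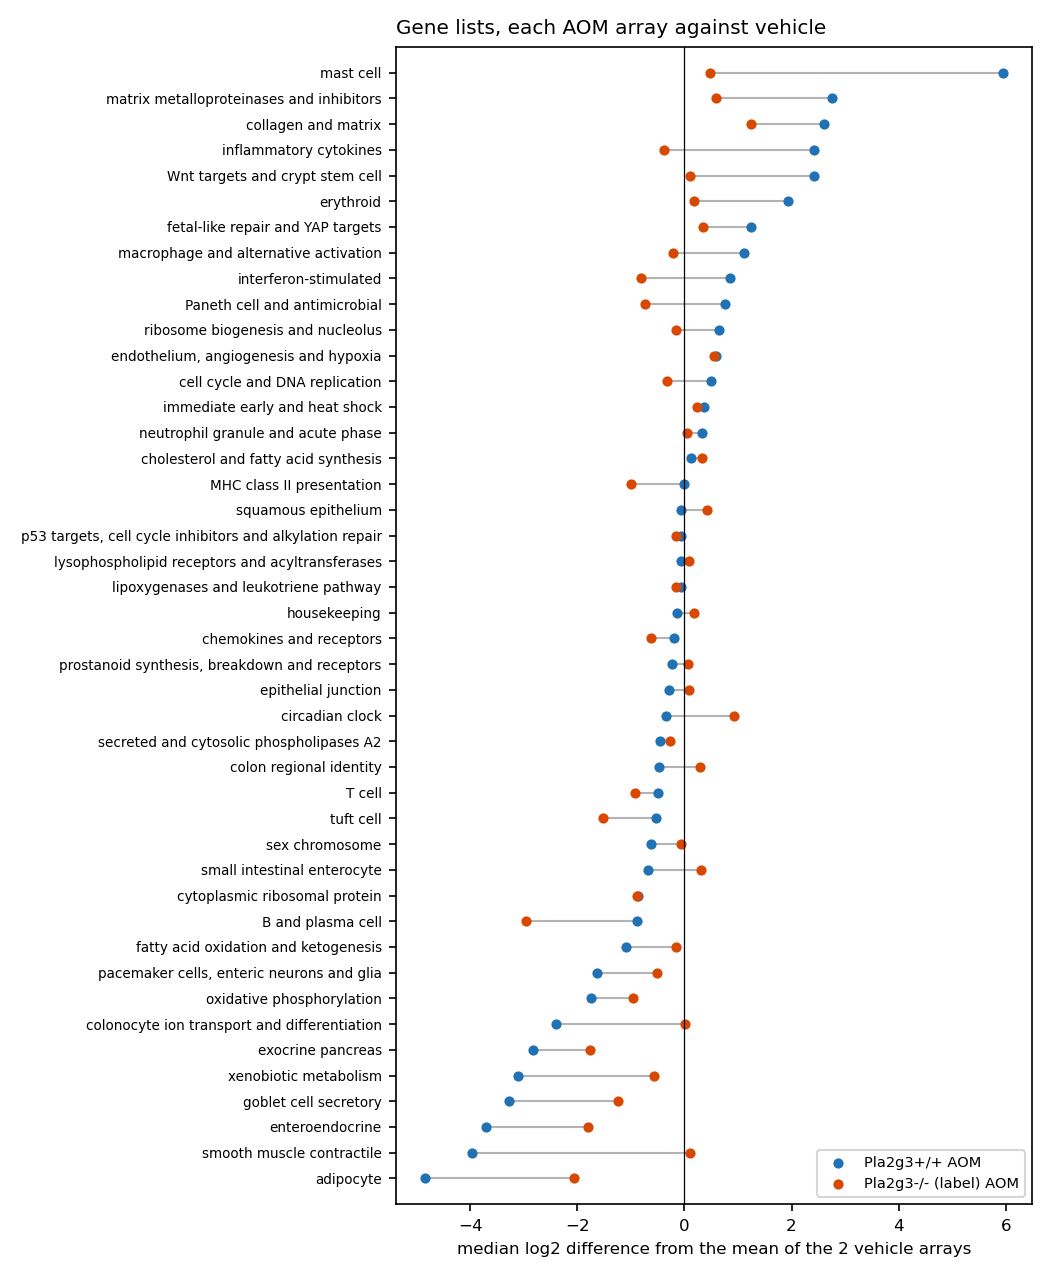
Median log2 difference of each AOM array from the mean of the 2 vehicle arrays (x axis), over the members of each list well above background on all 4 arrays, with 75th percentile scaling; blue is the *Pla2g3*+/+ pool and orange the pool labeled *Pla2g3*-/-, joined by a line. The 2 pools lie together for ribosomal proteins, and the blue points lie farther from 0 for smooth muscle (-3.96) and mast cells (5.95) while the orange point is farther off for B and plasma cells (-2.96).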

How the data were processed

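Pooled colon RNA of each group was labeled with Cy3 and hybridized to 1 Agilent mouse array. The deposited scanner files hold the processed intensity of each spot, which the authors obtained with Feature Extraction 11.5.1.1, as the submitters' processing notes state, with background subtraction and detrending per the file headers. The deposited value table holds the same intensity as a ratio to each array's 75th percentile. The deposited calls on background, saturation and outliers were used as given. No per-sample column of other samples was present (0).

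Here non-control spots called outliers were dropped, and the log2 intensity of the others was averaged over spots of a probe. These values were scaled to each array's 75th percentile, taken over all non-control spots. RefSeq names were found for 31394 of 39429 probes, giving 22387 genes, and 8035 probes remained unnamed and were left out of gene counts. The probe brightest over the 4 arrays stood for its gene. Of 5214 genes with several probes, 20 had probes past 2-fold in opposite directions after AOM. Probe coordinates are those of the files (mm9). After AOM 15490 genes were measured on both arrays, 798 and 915 were bounds for higher and lower, and 5184 had no value.

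With 1 array per group no test was made, and a difference is described by its size and the 2-fold count; the number of arrays limits the precision. A list was described by its counts and median over members with a value, and a median was taken as moved by a setting when it changed by more than 0.5 on the log2 scale. Genes were named by rule: *Pla2g3*; the 10 largest ratios in each direction above background on both arrays; the 5 brightest past 4-fold in each direction; in each of 44 lists the brightest member, up to 4 with the largest ratio and those past 2-fold against the list median; lipid mediator genes past 2-fold; 5 genes past 2-fold in 1 direction under both treatments and 5 in opposite directions; and genes within 1 Mb of *Pla2g3*. Some genes that the rule picks are not reported here. The members and lists were chosen with earlier results of these data known. The ratio calculation was tested on simulated data. Alternatives covered scaling (quantile, median, none, spike-in), background correction (normexp with an offset of 50), dim probes, probe summary, the deposited table and the fold threshold, of which spike-in scaling was chosen after seeing the data. R 4.3.3 with limma 3.58.1 (for normexp and quantile normalization) and Python 3.11.15 with pandas 2.3.3, numpy 2.4.6 and matplotlib 3.10.9 were used.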

Additional observations from a re-analysis of the deposited data

Results flagged for a closer look

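Of the 95 genes that passed 2-fold in opposite directions under the 2 treatments, 10 are among the genes named by rule. For these 10 the ratio of the pool labeled *Pla2g3*-/- over *Pla2g3*+/+ ran in opposite directions after AOM and with vehicle, past 2-fold in each, and with 1 array per group this contrast between treatments was not tested. The lectin genes *Reg3g* and *Reg3b*, antimicrobial products of the gut epithelium, had log2 ratios of -4.89 and -3.0 after AOM and 3.78 and 3.28 with vehicle. *Reg3g* had scaled signals of 6149 and 84498 with vehicle and 3428 and 116 after AOM, and *Reg3b* 28865 and 281297 with vehicle and 2782 and 347 after AOM. *Gdpd3*, a lysophospholipase D gene, had -3.09 after AOM and 3.84 with vehicle, from 140 and 2016 with vehicle and 1282 and 150 after AOM. *Mid1*, a ubiquitin ligase gene, had 4.34 and -2.70, from 1242 and 191 with vehicle and 604 and 12220 after AOM. *Bcl2l15*, of the BCL2 family, had -4.48 and 2.58, and *Chil3*, of the macrophage list, -3.94 and 1.30. *Defa3*, an α-defensin gene, had -9.16 and a bound of at least 2.98. The pancreatic enzyme genes *Pnliprp1* and *Rnase1* had -6.05 and, as a bound, -5.02 after AOM, against 2.45 and 1.86 with vehicle. *Retnla* had at least 9.21 after AOM and -1.10 with vehicle.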

How the results depend on the processing

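No list median or named gene past 2-fold changed direction under any alternative run, and medians within 0.5 of 0 on the log2 scale, such as those of the phospholipase A2 and prostanoid lists, changed sign under some scalings (-0.09 and -0.17 with spike-in scaling). With normexp background correction 1512 genes were higher and 1293 lower, at 1.5-fold 4231 and 3698, and at 4-fold 972 and 859. The excess of higher over lower genes turned without scaling (2188 and 2655) and with spike-in scaling (1845 and 3230). Normexp moved the medians of pacemaker cells, neurons and glia to 0.80, adipocyte to 1.20, metalloproteinases to -1.69, enteroendocrine to 0.55, cytokines to -0.83, chemokines to -1.26, neutrophil to -0.97, macrophage to -1.33, mast cell to -1.99, T cell to -0.44, B and plasma cell to -0.68, Paneth cell to -3.92 and xenobiotic metabolism to 1.82. With genes above background on both arrays only, medians became -2.25 for metalloproteinases, -1.23 for chemokines, -0.08 for neutrophil and -1.83 for T cell genes. Without a filter on dim probes they were 3.18 for enteroendocrine, -1.07 for neutrophil and -1.83 for T cell genes, and with the mean over probes -0.91 for neutrophil genes. Of 313 named genes, 34 crossed the 2-fold line with normexp, 21 with spike-in scaling, 11 without scaling, 8 with the mean over probes, 4 with median scaling, 2 with quantile normalization, 2 without the filter and 0 with the deposited table. The cause of these shifts was not tested. Signal over background limits the dim genes, which are given as bounds, and no setting replaces the missing replicate arrays.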

Other observations

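Several of the largest or brightest differences between the AOM pools lay outside the gene lists. *Cyp2f2*, a cytochrome P450 best known from airway club cells, had scaled signals of 1208 and 983 with vehicle and 37.3 and 9695 after AOM, 260-fold higher in the pool labeled *Pla2g3*-/-. *Inmt*, a methyltransferase gene, had 688 and 817 with vehicle and 19.5 and 2836 after AOM, 145-fold higher. *Pcp4*, a calmodulin regulator gene, had 5016 and 5932 with vehicle and 52.3 and 5486 after AOM, 105-fold higher. All 3 were lowest in the *Pla2g3*+/+ AOM pool, and *Cyp2f2* and *Inmt* were highest in the AOM pool labeled *Pla2g3*-/-. Among bright genes, the membrane mucin gene *Muc3* was 13.7-fold higher, with 15094 and 206230, and the peroxiredoxin gene *Prdx6* 4.38-fold higher, with 62994 and 276149. *Htra1*, a secreted serine protease gene, was 7.56-fold lower, with 3518 and 4727 with vehicle and 39124 and 5178 after AOM, and the lipoprotein gene *Apoe* 4.05-fold lower, with 37567 and 9273. *Smtn*, a smooth muscle gene within 1 Mb of *Pla2g3*, was 9.89-fold higher, with 18123 and 17473 with vehicle and 2103 and 20790 after AOM.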
